A study of Mus musculus with 36 samples.

Results

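Keratin mRNA was measured in cultured mouse mesenchymal stem cells (MSCs) of 4 tissue origins, for the 5 genes Krt7, Krt8, Krt14, Krt18 and Krt19 among the 24411 genes listed. These members were picked by name because their values in the same libraries were already known, so their levels are given as a description and carry no test. The cells came from femoral bone marrow (fBM-MSCs), vertebral bone marrow (vBM-MSCs), adipose tissue (A-MSCs) and lung (P-MSCs) of the same C57BL6/J mice, aged 8 weeks, with no transgene, knockout or treatment group. Which libraries share a mouse is not given in the labels. Bone was crushed and lung and fat were minced and digested with collagenase, and all cells were then grown on collagen I in MesenCult medium with MesenPure and a Rock inhibitor for up to 3 passages. The fat depot and the sex of the mice are not given in the sources used here. RNA sequencing by Smart-seq2, which copies polyadenylated RNA into full-length cDNA, covered 3 libraries each of fBM-MSCs, A-MSCs and P-MSCs and 2 of vBM-MSCs. Open chromatin was mapped by ATAC-seq, in which the transposase Tn5 cuts accessible DNA, and gave 1 pooled peak list per tissue.

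Keratins are the intermediate filament proteins of epithelial cells. A filament needs both families, because a type I keratin pairs with a type II keratin to form the building block of the polymer, and an unpaired chain is unstable in most cells. Krt7 and Krt8 are type II, and Krt14, Krt18 and Krt19 are type I. Krt8 and Krt18 are the usual pair of simple (single-layered) epithelia, Krt7 and Krt19 are found in ducts and in the mesothelium that lines body cavities, and Krt14 is the type I keratin of basal cells of the skin, where it pairs with Krt5. Mesenchymal cells build their filaments mainly from vimentin.

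In mm10 coordinates, Krt7 lies on chromosome 15 from 101412403 to 101427806 on the plus strand. Krt8, on the minus strand from 101996711 to 102004342, and Krt18, on the plus strand from 102028216 to 102032026, lie on the same chromosome with their starts facing each other across 23874 bases. Krt18 thus sits in the type II cluster although it is a type I gene. Krt19 (100140810 to 100145926) and Krt14 (100203162 to 100207510) are both on the minus strand of chromosome 11, with starts 61584 bases apart. All 55 expected counts of the members were whole numbers (within 0.005), while 6.30% of the values of all genes were not, so RSEM divided no read of a member among several genes in these libraries.

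The sequence upstream of the start is shown for the 3 keratins that were high in A-MSCs and have a promoter entry at their annotated start in the RefSeq table (build GRCm38.p6), because Krt8 and Krt18 were detected together although no ATAC-seq summit lay at either start. Each run is the 250 bases that end just before the start, read on the gene's own strand. Krt8 is shown at chr15:102004343-102004592 (minus), Krt18 at chr15:102027966-102028215 (plus) and Krt7 at chr15:101412153-101412402 (plus). Capitals mark matches on either strand to 5 motifs: the GATA motif, searched as GATAA; the AP-1 motif, searched as TGANTCA; the E-box that Snail and Zeb repressors bind, searched as CACCTG; the GC box, searched as GGGCGG; and the TATA box, searched as TATAA.
Krt8 promoter: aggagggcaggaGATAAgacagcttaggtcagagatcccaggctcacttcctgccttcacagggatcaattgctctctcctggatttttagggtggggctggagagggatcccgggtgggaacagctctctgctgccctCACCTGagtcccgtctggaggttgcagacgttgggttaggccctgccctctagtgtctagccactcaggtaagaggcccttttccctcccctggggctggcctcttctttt
Krt18 promoter: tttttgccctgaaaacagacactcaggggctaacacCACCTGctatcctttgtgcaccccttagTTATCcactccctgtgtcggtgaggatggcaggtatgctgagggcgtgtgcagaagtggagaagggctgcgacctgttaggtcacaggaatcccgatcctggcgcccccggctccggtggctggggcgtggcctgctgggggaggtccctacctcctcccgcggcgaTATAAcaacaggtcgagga
Krt7 promoter: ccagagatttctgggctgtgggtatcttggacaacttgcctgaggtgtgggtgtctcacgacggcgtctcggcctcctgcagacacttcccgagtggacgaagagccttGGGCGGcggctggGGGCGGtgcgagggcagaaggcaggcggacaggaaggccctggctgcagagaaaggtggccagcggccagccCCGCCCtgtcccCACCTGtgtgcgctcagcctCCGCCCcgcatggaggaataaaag

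Each of the 3 sequences held 1 E-box match, a motif found in 17.2% of the 32851 promoter sequences of this length in the table. The Krt18 sequence also had a TATA box match, as 22.8% of all promoters did, and no GC box match. In the Krt7 sequence the GC box was matched 4 times, and 32.7% of all promoters held at least 1 match. The GATA motif was matched once in Krt8 and once in Krt18, and in 22.6% of all promoters. The AP-1 motif was absent from these windows and present in 6.75% of all promoters. These are matches of letters only. Krt14 is in the table only with a start inside the gene, and Krt19 has no entry.

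The libraries held between 19569649 and 40517736 expected counts, with the lowest in fBM-MSC replicate 1. The MSC surface markers Itgb1 (CD29, at least 465.7 TPM), Cd44 (at least 228.6), Ly6a (Sca-1, at least 42.3) and Vcam1 (CD106, at least 29.3) were present in every library, and the leukocyte marker Ptprc (CD45) was at most 0.35 TPM. Pecam1 (CD31), a marker of endothelium, was at 3.84, 0.34 and 0.28 TPM in the A-MSC libraries and at most 0.33 elsewhere. Only A-MSC replicate 1 thus stood apart, and the part of endothelial cells in the keratin levels was not tested. Cd34, a negative marker, ranged from 0.91 to 79.2 TPM, with its highest mean, 54.02, in fBM-MSCs. TPM gives a gene's transcripts scaled to the same total in every library and corrected for transcript length, so TPM levels can be compared between genes.

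**Figure D1:**
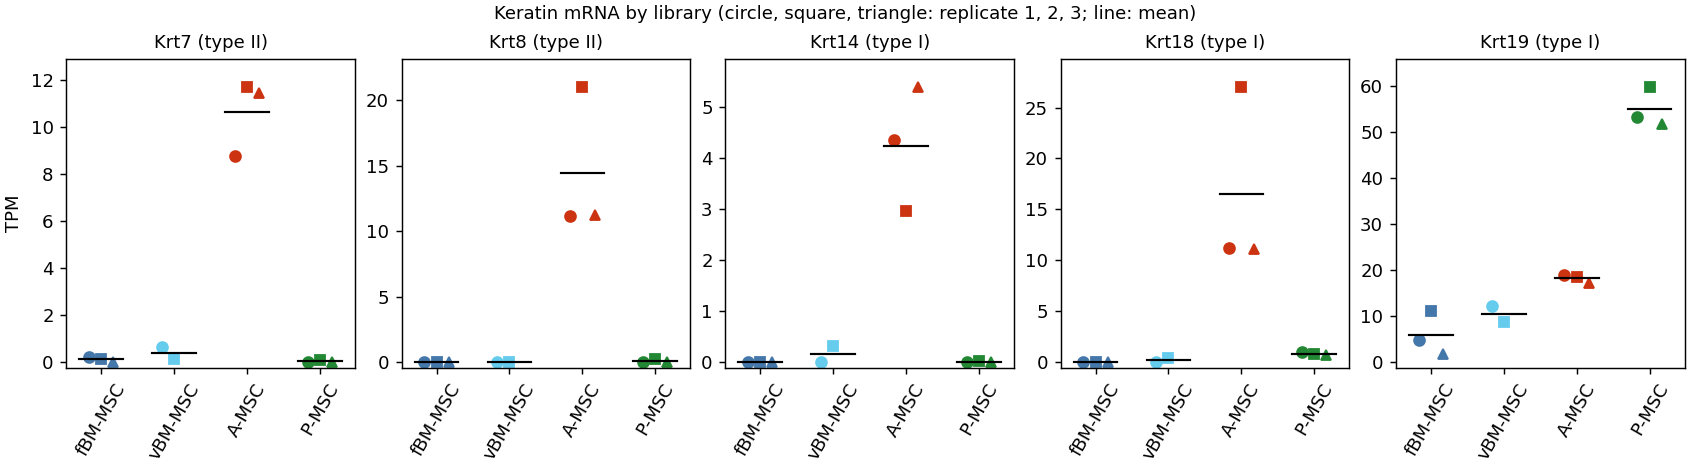
TPM of the 5 keratins in each library, 1 panel per gene, with tissue on the x axis, TPM on the y axis (scaled per panel, starting at 0) and a line at the tissue mean. Krt7, Krt8, Krt14 and Krt18 stand high in the 3 A-MSC libraries and near 0 elsewhere, and Krt19 is present in all 11 libraries with its highest values in P-MSCs.

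Krt7, Krt8, Krt14 and Krt18 shared one pattern: in all 3 A-MSC libraries they lay above every library of the other tissues. Krt19 had another, with P-MSCs highest, A-MSCs next and the marrow cultures lowest. The share of all genes with such a separation of libraries was not computed. A different measure is the edgeR call against the mean of the other tissues (quasi-likelihood, adjusted p under 0.05). By it, 16.0% of the 12509 genes tested were higher in A-MSCs and 13.9% lower, and 22.3% were higher in P-MSCs. Nothing is read from the members' own count, since these values chose them. All 5 members passed the filter on low counts, 4 of them only through A-MSCs. In bulk cultures, a smaller share of cells that make a keratin and less keratin RNA in each cell cannot be told apart.

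Krt8, the type II keratin of simple epithelia, reached 11.14, 21.02 and 11.21 TPM in the A-MSC libraries. In P-MSCs it was at 0, 0.24 and 0, and the 5 marrow libraries held no read of it. Replicate 2 of the A-MSCs was the highest library, and the groups did not overlap. The mean in A-MSCs was 14.5 ± 5.68 TPM (SD, n = 3). Summed over libraries, 1731 counts in A-MSCs stood against 8 in P-MSCs, a ratio of 246 in CPM (counts scaled to the same library total) with a 95% counting interval of 125 to 571. Against a floor of 3 counts over the group, A-MSCs were at least 502-fold higher than fBM-MSCs and at least 375-fold higher than vBM-MSCs. Intervals and floors here cover counting error only, since Smart-seq2 reads carry no molecular identifiers.

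Krt18, the type I partner of Krt8, had 11.20, 27.05 and 11.14 TPM in the A-MSC libraries. P-MSCs held a low level in each library, at 1.01, 0.81 and 0.72 TPM. In the marrow cultures Krt18 was at 0 in 4 of the 5 libraries and at 0.36 TPM in vBM-MSC replicate 2. The order was therefore A-MSCs, P-MSCs and then marrow, with no overlap between these 3 levels, while the vBM-MSC and fBM-MSC libraries overlapped at 0. A-MSCs averaged 16.5 ± 9.17 TPM (SD, n = 3) and P-MSCs 0.847 ± 0.148 (SD, n = 3). The CPM ratio of A-MSCs was 22.8 over P-MSCs (counting interval 18.01 to 29.2) and 94.97 over vBM-MSCs (51.5 to 199), and at least 424 over fBM-MSCs.

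Krt7, the type II keratin of ducts and mesothelium, measured 8.74, 11.70 and 11.44 TPM in A-MSCs. Unlike Krt8, it had reads in marrow cultures, with 0.22, 0.14 and 0 TPM in fBM-MSCs and 0.66 and 0.15 in vBM-MSCs. P-MSCs were at 0, 0.10 and 0. No library outside A-MSCs came near the A-MSC range, and the other 3 tissues were not separated from each other except that both vBM-MSC libraries were above all P-MSC libraries. The A-MSC mean was 10.6 ± 1.64 TPM (SD, n = 3). Its CPM exceeded that of vBM-MSCs 30.4-fold (counting interval 20.2 to 48.2), that of fBM-MSCs 117-fold (59.2 to 272) and that of P-MSCs 409-fold (140 to 1986), the last resting on 3 counts.

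Krt14, the type I keratin of basal epidermal cells, was the lowest of the 4 in A-MSCs, at 4.35, 2.96 and 5.4 TPM. Its only other reads were 11 counts in vBM-MSC replicate 2 (0.32 TPM) and 1 count in P-MSC replicate 2 (0.03 TPM). The groups did not overlap. A-MSCs averaged 4.24 ± 1.22 TPM (SD, n = 3), a CPM 26.3 times that of vBM-MSCs (counting interval 14.5 to 53.0) and at least 129 times that of fBM-MSCs. Krt5, the type II partner of Krt14 in skin, was listed at 0 in every library.

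Krt19, a type I keratin of simple epithelia that lacks the usual tail domain, was the one member present in every library. Its levels were 53.23, 59.82 and 51.69 TPM in P-MSCs and 18.94, 18.53 and 17.10 TPM in A-MSCs. In vBM-MSCs they were 12.17 and 8.72 TPM, and in fBM-MSCs 4.70, 11.11 and 1.84 TPM. P-MSCs lay above A-MSCs and A-MSCs above all marrow libraries, whereas the ranges of vBM-MSCs and fBM-MSCs overlapped. The mean of P-MSCs was 54.9 ± 4.32 (SD, n = 3) and that of A-MSCs 18.2 ± 0.966 (SD, n = 3). For vBM-MSCs it was 10.4 ± 2.44 (SD, n = 2) and for fBM-MSCs 5.88 ± 4.75 (SD, n = 3). Fitted with all genes, the log2 fold change of Krt19 in P-MSCs against the mean of the other tissues was 2.27 (SE 0.33), and in A-MSCs it was 0.41 (SE 0.35). The contrasts share all 11 libraries and are not independent.

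Within the A-MSCs, replicate 2 stood apart for the pair Krt8 and Krt18, with the highest value of both, and had the lowest value of Krt14. Krt19 varied least between these libraries, from 17.10 to 18.94 TPM. The ratio of Krt18 to Krt8 was 1.005, 1.29 and 0.994 in the 3 A-MSC libraries, so the mRNAs of the pair were close to equal in TPM. With A-MSC replicate 2 left out, the fitted log2 fold change of A-MSCs against the mean of the other tissues went from 10.7 to 10.3 for Krt8 and from 7.64 to 7.1 for Krt18. These fitted values depend on the prior count that the fit adds where a tissue has no reads.

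Summed over the members of each family, type II mRNA (Krt7 and Krt8) was found at 19.9, 32.7 and 22.6 TPM in the A-MSC libraries and at no more than 0.66 TPM in any other library. Type I mRNA (Krt14, Krt18 and Krt19) was found everywhere: 33.6 to 48.5 TPM in A-MSCs, 52.4 to 60.7 in P-MSCs, 9.40 to 12.2 in vBM-MSCs and 1.84 to 11.1 in fBM-MSCs. P-MSCs and A-MSCs thus held like totals of the 5 keratins (55.9 ± 4.53 and 64.0 ± 15 TPM, SD, n = 3 each, with overlapping ranges), made up in different ways. In P-MSCs Krt19 was 98.1% to 98.6% of the total, and in A-MSCs 22.8% to 34.8%. Type I exceeded type II by 1.48 to 1.74 times in A-MSCs. Relative to vimentin (Vim, 2028 to 2101 TPM in A-MSCs), the keratin total was 2.68% to 3.95% in A-MSCs, 2.03% to 2.37% in P-MSCs and at most 0.472% in the marrow libraries.

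**Figure D2:**
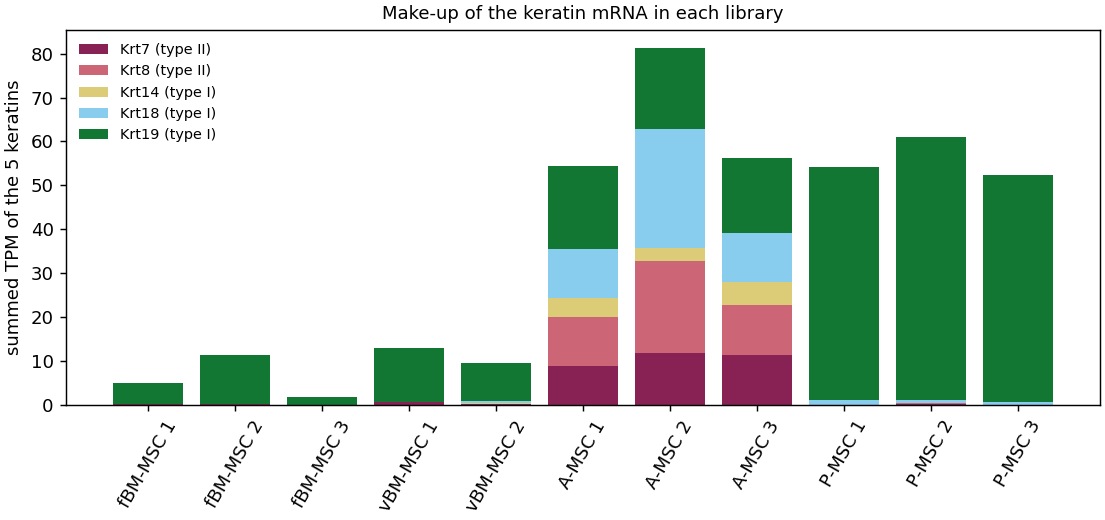
Summed TPM of the 5 keratins in each of the 11 libraries, stacked by gene; the y axis starts at 0. The P-MSC bars are almost wholly Krt19, while the A-MSC bars, of 54.4 to 81.3 TPM, hold all 5 genes.

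The rest of the keratin family was nearly silent. Of the 47 other keratin genes listed, 27 were at 0 in every library and 2 had a tissue mean of at least 1 TPM. Krt10, a type I keratin of differentiating skin cells, ranged from 1.24 to 5.18 TPM over all tissues, and its adjusted p was 0.465 in the A-MSC contrast (edgeR). Krt20, a type I keratin of gut and urothelium, had 3.66, 4.64 and 2.39 TPM in A-MSCs and at most 2.34 elsewhere, with an adjusted p of 0.104. Krt80, a type II keratin named after its values were seen, was at most 1.41 TPM, in an fBM-MSC library, and at 0.18 to 0.53 in A-MSCs. These 3 keratins, which passed the filter, gave no call in edgeR or DESeq2 in either contrast. At an unadjusted p under 0.05 edgeR listed 1 in the A-MSC contrast and none in the P-MSC contrast, and limma-trend called 1 in A-MSCs.

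Genes that work with keratins were described from lists chosen for their roles. The cytolinkers, proteins that tie keratin filaments to other structures, were lower in A-MSCs for 6 of the 7 tested (of 10 listed), with a median log2 fold change of -1.47, and none was higher, beside 13.9% and 16.0% of all genes. Dst, the gene of the plakin BPAG1, fell by 2.0 on the log2 scale (SE 0.345, adjusted p = 0.00152), Tchp, the gene of the keratin-binding protein trichoplein, fell by 1.68 (SE 0.396, adjusted p = 0.00866), and Plec, the gene of plectin, fell by 0.99 (SE 0.177, adjusted p = 0.00191). Without A-MSC replicate 3 the count of 6 became 3. Dsp, whose product desmoplakin anchors keratins at desmosomes, was at 0 in the A-MSC libraries and at most 0.30 TPM elsewhere. Of 7 desmosome genes tested (of 16 listed), none was called in A-MSCs by edgeR, with 2 at an unadjusted p under 0.05 and 1 called lower by DESeq2. In the hemidesmosome list, 2 of 6 tested were lower, beside 13.9% of all genes, and these were Dst and Plec again. Dst was at 0.27 to 0.29 TPM in A-MSCs, but vBM-MSC replicate 1 was lower, at 0.24, and P-MSCs were highest, with a mean of 1.87 TPM (adjusted p = 0.00114 there).

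Among epithelial junction genes, 4 of 8 tested (of 19 in the files) were higher in A-MSCs and 1 was lower, beside 16.0% and 13.9% of all genes. Cdh3, which encodes P-cadherin, had 3.52, 4.84 and 5.01 TPM in A-MSCs and at most 1.37 in other libraries. It passed the filter on low counts only through A-MSCs, so it had to be higher there and no test is given, which leaves 3 others in the count. Cldn3 and Cxadr, genes of tight junction proteins, rose by 3.12 (SE 0.672, adjusted p = 0.00629) and 2.64 (SE 0.703, adjusted p = 0.0159). Cldn3 was at a mean of 1.32 TPM in A-MSCs and higher, at 2.15 TPM, in P-MSCs, where it was also called (log2 fold change 3.77, adjusted p = 0.000998). The Cxadr call was lost without A-MSC replicate 3. Tjp1, the gene of the scaffold ZO-1, fell by 0.92 (SE 0.182, adjusted p = 0.00336). The classical epithelial genes were close to absent: Cdh1, the gene of E-cadherin, was at 0 in 10 libraries and at 0.22 TPM in A-MSC replicate 2, and Epcam was at most 0.41 TPM in any library. In P-MSCs, 3 of the 8 were higher, beside 22.3% of all genes. The 1 called lower there was Cdh3, and nothing is read from this. A-MSCs, through which Cdh3 passed the filter, are part of the mean that P-MSCs were set against.

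Regulators of the epithelial state showed a mixed picture. Esrp2, an epithelial splicing regulator, rose in A-MSCs (6.22 ± 0.659 TPM, SD, n = 3, log2 fold change 2.75, SE 0.304, adjusted p = 9.19e-05), and Klf5 rose by 1.24 (SE 0.393, adjusted p = 0.0336) while Klf4 fell by 0.63 (SE 0.182, adjusted p = 0.0238). The Klf5 call was lost under 8 of the 16 alternatives, among them library totals in place of TMM and each omission of an A-MSC or P-MSC library, and the Klf4 call without A-MSC replicate 1 or 3. Klf5 was as high in P-MSCs (means of 9.20 TPM there and 8.58 in A-MSCs) and was called higher there too (adjusted p = 0.0383). These were the calls among 4 tested of 16. Trp63, the regulator of basal epithelia in which Krt14 is made, did not pass the filter and was at most 0.30 TPM. Of the 6 repressors of the epithelial state, all tested, Snai2 fell by 1.14 (SE 0.240, adjusted p = 0.00483), Zeb1 fell by 0.49 (SE 0.148, adjusted p = 0.029) and Twist2 rose by 1.57 (SE 0.458, adjusted p = 0.0243). The Twist2 call was lost without any 1 of the A-MSC libraries or without vBM-MSC replicate 2, which left no repressor called higher, and the Zeb1 call was lost without A-MSC replicate 2 or 3, which left 1 called lower.

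Of 10 other intermediate filament genes tested, 3 were higher in A-MSCs and 3 lower, beside 16.0% and 13.9% of all genes. The 3 lower became 1 without fBM-MSC replicate 2, A-MSC replicate 1 or 3, or any 1 of the P-MSC libraries. Des, which encodes desmin, the filament of muscle, was at 163 to 245 TPM in A-MSCs against means of 6.96 in P-MSCs, 1.22 in fBM-MSCs and 0.99 in vBM-MSCs (log2 fold change 6.81, SE 0.223, adjusted p = 3.42e-08). Nefm, a neurofilament gene, rose by 3.81 (SE 0.959, adjusted p = 0.012) at a mean of only 0.99 TPM. Its A-MSC values (1.0, 0.7 and 1.27 TPM) overlapped those of fBM-MSCs (1.51, 0.67 and 0.05), and the other 5 libraries were at most 0.11. Lmnb1, the gene of lamin B1, rose by 1.06 (SE 0.134, adjusted p = 0.000222), with a mean of 10.24 TPM in A-MSCs, but was higher in P-MSCs, at 33.56 TPM (log2 fold change 3.08 there, adjusted p = 8.31e-08). Synm, the gene of the desmin partner synemin, fell by 3.97 (SE 0.752, adjusted p = 0.00265), and Lmna fell by 0.39 (SE 0.126, adjusted p = 0.0385). Vim fell by 0.34 (SE 0.111, adjusted p = 0.0363). The Lmna and Vim changes were small and each call was lost under 8 of the 16 alternatives.

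Markers of mesothelium were high in the same libraries as the 4 A-MSC keratins. Of 8 tested (of 11 in the files), 7 were called higher in A-MSCs and none lower, beside 16.0% and 13.9% of all genes. However, 5 of these (Cldn15, Gpm6a, Lrrn4, Upk3b and Wt1) passed the filter on low counts only through A-MSCs and so had to be higher there, as 171 of all 12509 genes tested did. The count is therefore given as a description, and no p is given for these 5. Wt1, a transcription factor of mesothelium and kidney, had 10.59, 14.94 and 11.72 TPM in A-MSCs and no read in the other 8 libraries. Upk3b (7.76 to 13.98 TPM) and Msln, the gene of mesothelin (5.37 to 12.23 TPM), were at most 0.18 and 2.94 TPM elsewhere. Msln did not depend on A-MSCs to pass the filter (adjusted p = 0.000113), and it was called higher in P-MSCs too (log2 fold change 2.75 there, adjusted p = 0.00633). In P-MSCs, 2 of the 8, Msln and Upk1b, were called higher, beside 22.3% of all genes. The 2 became 1 without P-MSC replicate 2 or 3 and with limma-trend. Cldn15 was called lower there, but nothing is read from this. It passed the filter only through A-MSCs, which are part of the mean that P-MSCs were set against. Gpm6a and Lrrn4 were likewise at 0 outside A-MSCs, at means of 3.89 and 2.07 TPM within them. The summed list ranged over 125 to 180 TPM in A-MSCs, 56.5 to 78.6 in P-MSCs, 2.86 to 10.5 in fBM-MSCs and 209 to 572 in vBM-MSCs, where Nkain4 alone gave 565 and 193. Wt1, Lrrn4, Gpm6a and Bnc1 were at 0 in all libraries of the other tissues. The part of mesothelial cells in the keratin levels was not tested.

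In A-MSC replicate 2, where Krt8 and Krt18 were highest, Msln, Upk3b, Lrrn4 and Gpm6a were at their lowest of the 3 libraries and Wt1 was at its highest. Markers of lung epithelium were low: of 15 genes, the 1 tested, Abca3, was not called in either contrast (edgeR, none at an unadjusted p under 0.05, none by DESeq2), Sftpc was at 0 in all 11 libraries, and the list summed to 1.77 to 2.23 TPM in P-MSCs, where Krt19 was highest. For skin and mammary epithelium, none of 4 tested was called in A-MSCs by edgeR or DESeq2, none at an unadjusted p under 0.05, and 2 were called lower by limma-trend. That list summed to 3.13 to 4.01 TPM in A-MSCs and held 7 genes at 0 there, Krt5 among them. In the lists of the labelled cell type, 3 of the 4 positive MSC markers were lower in A-MSCs (1 without A-MSC replicate 2 or 3), beside 13.9% of all genes, including Itgb1, which fell by 0.72 (SE 0.120, adjusted p = 0.00121), and Ly6a, which fell by 0.67 (SE 0.198, adjusted p = 0.0247). The Ly6a call was lost without A-MSC replicate 2 or 3, and its mean was lower still in P-MSCs (44.97 TPM against 126 in A-MSCs). Cd34 fell by 3.25 (SE 0.611, adjusted p = 0.00254). Of 6 fibroblast genes, Pdgfra rose by 1.80 (SE 0.253, adjusted p = 0.000433) and Col3a1 by 0.90 (SE 0.225, adjusted p = 0.0118), the latter not called without A-MSC replicate 3. Pdgfra overlapped between A-MSCs (6.37 to 7.93 TPM) and P-MSCs (5.74 to 7.42), where it was called higher too (adjusted p = 0.00161). Col3a1 was higher in vBM-MSCs (108 to 167 TPM) than in A-MSCs (43.19 to 61.57), which overlapped fBM-MSCs (22.8 to 50.3).

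**Figure D3:**
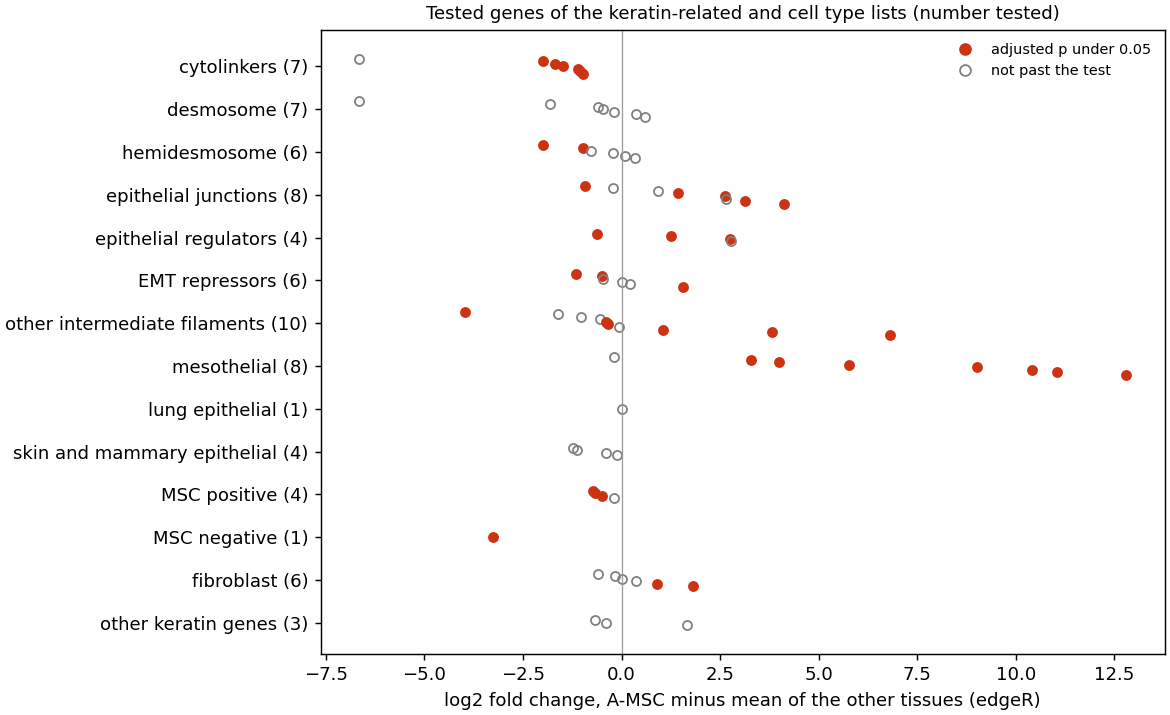
Fitted log2 fold change (x axis) of A-MSCs against the mean of the other tissues for the tested genes of each list (y axis, number tested in brackets); filled points passed an adjusted p under 0.05. Mesothelial genes lie to the right with 7 of 8 filled, 5 of which passed the filter only through A-MSCs, and cytolinkers to the left with 6 of 7 filled; the values of Wt1, Gpm6a and Lrrn4 depend on the prior count because they had no read elsewhere.

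The genes whose profile over the 11 libraries was most like each member were found by the root mean square (RMS) difference in log2(TPM + 1), after centring each gene on its own mean. For Krt8 the nearest was Wt1 (RMS difference 0.155), followed by Upk3b (0.416), the folate receptor gene Folr1 (0.445), the growth factor gene Gdf6 (0.449) and the RNA-binding protein gene Rbpms (0.486). Wt1 was also nearest to Krt7 (0.270), whose list went on with Rbpms (0.302), Upk3b (0.340), Pilra (0.358) and Olr1 (0.397). With log2(TPM + 0.1) Wt1 stayed nearest to Krt8, but Aldh1a3 was nearest to Krt7 and Des to Krt18, and Wt1 was no longer among the 5 nearest to Krt18. Krt18 had Fam84b (0.370), Wt1 (0.409), the imprinted gene Nnat (0.422), Mrap (0.510) and Folr1 (0.536). Among the members, the smallest differences were between Krt8 and Krt18 (0.351) and between Krt7 and Krt8 (0.363), so Krt8 was closer to Wt1 than to its partner.

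With this offset of 1 the genes nearest to Krt14 were the complement gene C3 (0.142), Star (0.198), whose product moves cholesterol into mitochondria, Gpr35 (0.265), Gpm6a (0.274) and Kcnmb1 (0.274). None of these was among the 5 nearest of Krt7, Krt8 or Krt18, but this depended on the offset. With log2(TPM + 0.1) the 5 nearest to Krt14 were Pilra, C3, Gpm6a, Lrrn4 and Upk3b, of which Pilra and Gpm6a were also nearest genes of Krt7 and Krt8, and Upk3b of Krt8. Krt19 differed from the other members by 1.62 to 2.06 and had a distinct list. Its nearest gene was Gins1, of the replication complex GINS (0.304), then Fam64a (0.381), the centromere gene Cenph (0.399), the cytokinesis gene Anln (0.4) and Rassf6 (0.404). Anln, for example, averaged 56.7 TPM in P-MSCs and 23.8 in A-MSCs, against 7.86 (vBM-MSCs) and 4.21 (fBM-MSCs) in marrow. The 11 libraries share their tissue groups, so the likeness is mostly that of tissue means.

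**Figure D4:**
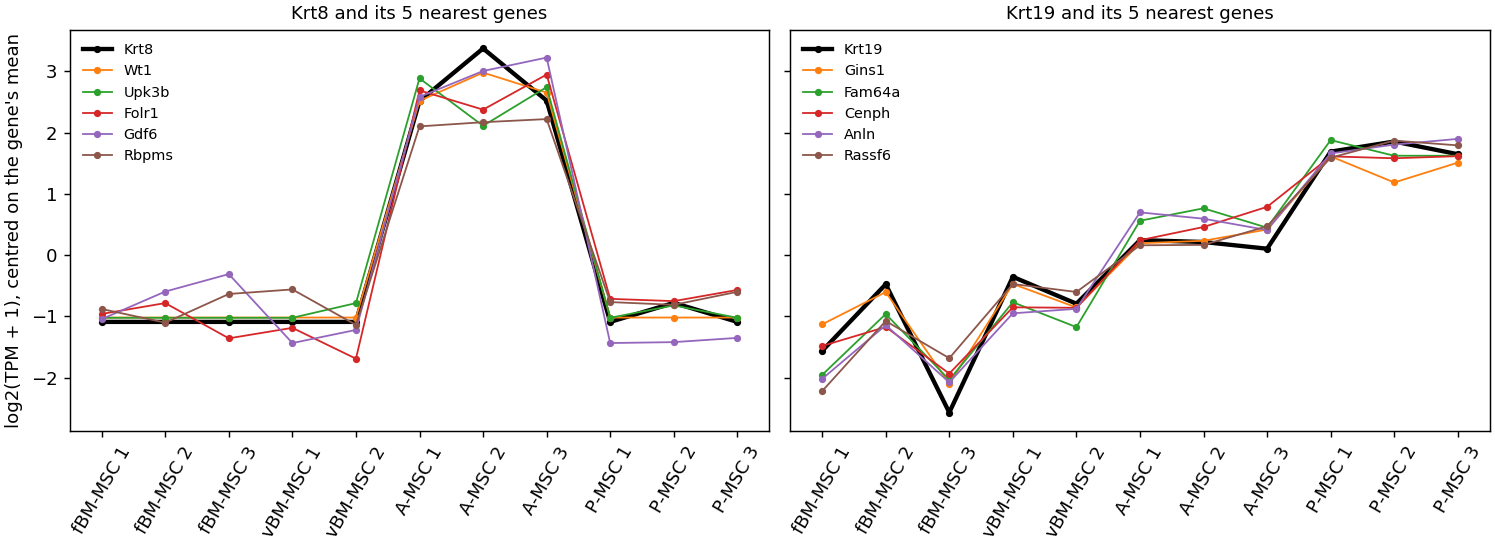
Centred log2(TPM + 1) (y axis) of Krt8 and Krt19 (thick lines) and their 5 nearest genes in each library (x axis). The genes near Krt8 are high only in the A-MSC libraries, while those near Krt19 step up from marrow to A-MSCs to P-MSCs; the RMS difference is at most 0.486 for Krt8 and 0.404 for Krt19.

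Open chromatin near the members was read from the summits of the peak lists at a -log10 q of at least 7, which kept 59536 to 71345 summits per tissue. A summit's fold enrichment is its read density over the genome-wide background of that tissue's pooled reads. With 1 list per tissue there was no replicate and no test, and small differences between tissues are not read. Only Krt19 had a summit within 1 kb of a start, in A-MSCs and in P-MSCs, so that 1 of 5 members had one in each of these and none in the marrow lists. By comparison, 52.6% of 24963 annotated genes had a promoter summit in the A-MSC list and 51.7% had one in the P-MSC list. The marrow lists gave 50.7% (fBM-MSCs) and 51.6% (vBM-MSCs). Krt7, Krt8, Krt14 and Krt18 were thus detected in A-MSCs without a summit at their starts, also when every listed summit was counted.

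The Krt19 promoter summit, 0.278 kb upstream of the start between genes, had a fold enrichment of 14.7 in P-MSCs and 6.62 in A-MSCs. A stronger site lay 1.84 kb upstream in all 4 tissues, at 23.9-fold in A-MSCs, 21.3-fold in P-MSCs and 6.99-fold in each marrow list. The A-MSC value at the promoter summit was low, and that summit was lost at a -log10 q of at least 20, whereas the P-MSC summit was kept. At the site 1.84 kb upstream P-MSCs and A-MSCs had like values, while the mRNA of Krt19 was 2.62 times higher in P-MSCs than in A-MSCs by CPM. Another site, 25.3 kb downstream in an intron of Krt13, was near the threshold in all 4 lists (5.89 to 7.36).

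Between Krt8 and Krt18, a site lay 11.9 kb upstream of the Krt8 start and 11.99 kb upstream of the Krt18 start, within the annotated span of Gm41404. This midpoint site had 19.1-fold enrichment in P-MSCs and 11.04-fold in A-MSCs. It was under the threshold in fBM-MSCs (-log10 q of 3.0) and not listed in vBM-MSCs. Another, 17.6 kb downstream of the Krt18 start within the annotated span of Gm41405, had 24.3-fold in P-MSCs, 13.2-fold in A-MSCs and 6.62-fold in vBM-MSCs. P-MSCs had 10 of the 11 sites of the Krt8-Krt18 region, A-MSCs 7, vBM-MSCs 7 and fBM-MSCs 4. Those of fBM-MSCs all lay within the annotated span of Krt78 and were shared by all 4 tissues. At the midpoint and at the site beyond Krt18 the P-MSC value was thus above that of A-MSCs, where Krt8 and Krt18 mRNA was higher, with no replicate of either list. The site nearest to either start within a member was in an intron of Krt8, 1.29 kb inside the gene. Its enrichment was 6.62 in A-MSCs and 6.25 in vBM-MSCs, near the threshold, and it was not listed in P-MSCs or fBM-MSCs.

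Krt7 had a site in its own intron, 2.04 kb from the start, at 8.83-fold in A-MSCs. The summit there in vBM-MSCs was just under the threshold (-log10 q of 6.23), and P-MSCs and fBM-MSCs listed none. A second A-MSC site lay 19.9 kb upstream within the annotated span of Gm671, at 9.93-fold. The 2 remaining sites of this region, at about 24 kb upstream, passed in P-MSCs. An A-MSC summit there was just under the threshold (-log10 q of 6.33). Krt14 had no site that was kept in A-MSCs alone. One, 8.69 kb from the start and beyond the end of the gene, stood at 8.46-fold to 9.20-fold in all 4 lists, and one 14.4 kb upstream passed in fBM-MSCs (12.1-fold) and vBM-MSCs (8.09-fold) only.

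**Figure D5:**
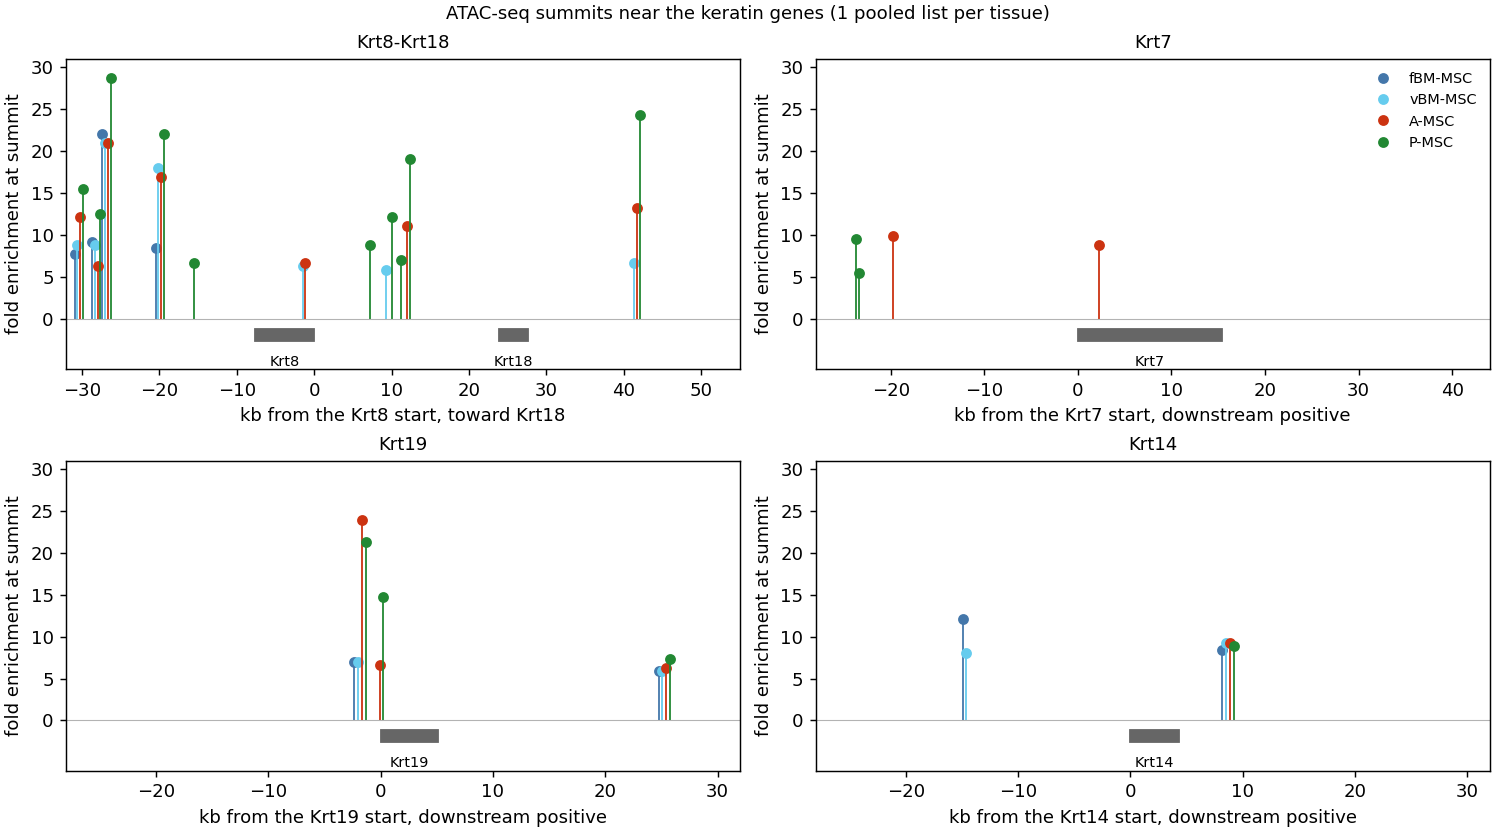
Fold enrichment (y axis) of ATAC-seq summits near the members against distance in kb from a gene start (x axis), coloured by tissue, with grey boxes for the genes; points are offset slightly by tissue. In the Krt8-Krt18 panel the summits between the genes are highest in P-MSCs (19.1 against 11.04 in A-MSCs at the midpoint), and in the Krt19 panel A-MSCs and P-MSCs stand above the marrow lists at the site 1.84 kb upstream, but all 4 lists are low at the site 25.3 kb downstream.

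The 300 bases around 4 of these summits are shown, on the plus strand of GRCm38 (mm10), because they are the sites nearest to or between the A-MSC keratins and the site upstream of Krt19 described above. The Krt8-Krt18 midpoint is chr15:102016075-102016374 (the P-MSC summit), the Krt8 intron site chr15:102002904-102003203, the Krt7 intron site chr15:101414290-101414589 and the Krt19 upstream site chr11:100147619-100147918 (the A-MSC summits). Capitals mark the same 5 motifs on either strand.
Krt8-Krt18 midpoint: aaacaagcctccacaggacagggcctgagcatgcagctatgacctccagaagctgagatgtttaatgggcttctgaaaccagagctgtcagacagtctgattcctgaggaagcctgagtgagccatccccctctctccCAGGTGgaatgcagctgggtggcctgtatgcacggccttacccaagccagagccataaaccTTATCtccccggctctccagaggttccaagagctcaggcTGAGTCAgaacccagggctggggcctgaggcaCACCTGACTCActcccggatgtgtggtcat
Krt8 intron: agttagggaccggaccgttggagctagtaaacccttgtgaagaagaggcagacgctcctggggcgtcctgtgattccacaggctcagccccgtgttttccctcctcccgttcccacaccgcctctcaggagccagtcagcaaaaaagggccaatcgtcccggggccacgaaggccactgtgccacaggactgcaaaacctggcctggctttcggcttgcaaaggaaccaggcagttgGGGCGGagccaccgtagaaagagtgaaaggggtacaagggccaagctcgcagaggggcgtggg
Krt7 intron: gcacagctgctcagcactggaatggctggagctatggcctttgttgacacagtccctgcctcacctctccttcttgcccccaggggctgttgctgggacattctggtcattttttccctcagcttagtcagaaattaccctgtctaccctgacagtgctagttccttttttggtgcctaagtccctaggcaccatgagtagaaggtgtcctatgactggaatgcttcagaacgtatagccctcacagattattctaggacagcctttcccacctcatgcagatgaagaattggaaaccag
Krt19 upstream: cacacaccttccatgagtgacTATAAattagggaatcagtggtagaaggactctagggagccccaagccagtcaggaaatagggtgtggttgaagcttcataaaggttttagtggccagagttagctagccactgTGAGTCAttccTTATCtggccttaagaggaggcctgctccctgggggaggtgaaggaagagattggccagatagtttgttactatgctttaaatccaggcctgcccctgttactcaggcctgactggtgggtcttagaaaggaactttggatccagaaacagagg

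The midpoint window held 2 matches to the AP-1 motif, which began at its bases 239 and 275, 2 to the E-box, at 139 and 271, and 1 to the GATA motif, at 200. The AP-1 match at 275 overlaps the E-box match at 271. Of all 64057 kept P-MSC summit windows of this length, 40.2% held an AP-1 match, 11.8% an E-box and 25.6% a GATA match. The Krt19 upstream window held 1 match each to the AP-1 motif, the GATA motif and the TATA box, which occurred in 35.4%, 27.4% and 21.7% of the 71345 A-MSC windows. The Krt8 intron window held a single GC box match (23.4% of A-MSC windows), and the Krt7 intron window matched none of the 5 motifs.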

How the data were processed

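RNA-seq and ATAC-seq of cultured mouse MSCs were re-analysed from processed files. The 5 keratins and all gene lists were chosen with earlier results of these data known. RSEM, run by the authors on mm10 with STAR, gave the deposited expected counts, which are not normalized, and the deposited TPM, scaled by the authors for length and library. Smart-seq2 reads carry no strand. Per the labels, Trim Galore, Bowtie, Picard and MACS2 were used for ATAC-seq, and the deposited lists give each summit's fold enrichment (a ratio) and -log10 q from reads pooled over the 6 samples per tissue. Software versions are not given in the sources used here. Replicate 3 of vBM-MSCs (RNA-seq) is not analysed here.

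Expected counts were rounded and fitted in edgeR 4.0.16 (R 4.3.3; two-sided quasi-likelihood test, TMM, Benjamini-Hochberg; genes that reached a CPM of 1 in fewer than 2 libraries were dropped) as 1 model of 4 tissues over 11 libraries, with A-MSCs or P-MSCs against the mean of the other tissues. DESeq2 1.42.0 and limma 3.58.1 (log2(TPM + 1)) were alternatives. The tissues came from the same mice, but the labels do not link libraries to mice, so p-values treat libraries as independent. Folds with no counts used a floor of 3 counts over the group, and intervals are 95% binomial. Summits within 250 bases formed 1 site, and sites were read within 25 kb of a gene and annotated from RefSeq GRCm38.p6. Named genes were the members, other keratins with a tissue mean of at least 1 TPM, 10 fixed markers, the 3 highest and 2 lowest called genes of each list, and the 5 nearest genes to each member. Counts were simulated with the fitted spread, independent libraries and no difference among the other tissues. Of 12241 genes, 200 were changed 4-fold in A-MSCs, and 168 of these were recovered in 177 calls. With no change, none of 12240 genes was called. The real libraries depart from these settings, so this checks the procedure only.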

Additional observations from a re-analysis of the deposited data

How the results depend on the processing

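The directions of the fold changes in A-MSCs of the members and of the named genes tested held in all 16 alternatives where they could be fitted, as did those in P-MSCs of Krt19 (2.12 to 2.54), Cldn3, Klf5, Lmnb1, Pdgfra and Dst, of which Klf5 lost its call under 7. Of 44 named genes past the test in A-MSCs, 20 were chosen as nearest genes to a member or passed the filter only through A-MSCs, so nothing is read from their calls. Of the other 24, 15 were called under all 16 alternatives and 9 (Col3a1, Cxadr, Klf4, Klf5, Lmna, Ly6a, Twist2, Vim and Zeb1) lost it under at least 1. The number of genes called in A-MSCs was 3737 (2486 to 4141 with 1 library left out, lowest without A-MSC replicate 3), and in P-MSCs 5582 (4312 to 5849). Library totals in place of TMM moved the median of all genes by -0.141 (log2) in A-MSCs and 0.166 in P-MSCs, and the split of higher against lower calls from 1997 and 1740 to 1288 and 2380 in A-MSCs and from 2788 and 2794 to 3779 and 2057 in P-MSCs; limma-trend gave 1354 and 2558, and 3690 and 2399. Same-numbered libraries correlated at -0.0382 to 0.159 in their deviations from tissue means (median 0.0311), with 1 of 15 pairs above 0.1. Pairs of other numbers gave -0.166 to 0.166 (median -0.0178), with 1 of 30 above 0.1. The best match had the library's own number for 6 of 11 libraries. These values do not settle whether the numbers mark mice, and the main fit did not pair libraries. With the replicate block, 3665 and 5480 genes were called, and the members' log2 fold change in A-MSCs was 6.86 for Krt7, 11.1 for Krt8 and 8.21 for Krt14. DESeq2 gave 10.2 for Krt8. On the log2(TPM + 1) scale, which compresses low genes, limma gave 3.31 for Krt7, 3.86 for Krt8, 2.29 for Krt14 and 3.64 for Krt18. Leaving out 1 library in turn gave 6.39 to 7.65 for Krt7 (highest without P-MSC replicate 2), 10.3 to 12.1 for Krt8 (highest without P-MSC replicate 2), 7.55 to 9.63 for Krt14, 7.1 to 9.39 for Krt18 (both highest without vBM-MSC replicate 2) and 0.263 to 0.696 for Krt19. List counts moved by over 1.5 times in 31 of 280 comparisons across settings and 81 of 616 with a library left out, mostly by 1 gene. With log2(TPM + 0.1), 2 of the 5 nearest genes were shared for each of Krt7, Krt8, Krt14 and Krt18 and 4 for Krt19.

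With every listed summit, 1 member had a promoter summit in vBM-MSCs, beside 57.8% of all genes. At a -log10 q of at least 20, the A-MSC list had 0, beside 39.2%. A window of 5 kb gave 1 member in femoral and 2 in vertebral marrow, beside 59.6% of all genes in each. The A-MSC list then gave 3 of 5 members, beside 61.4%, so members were not in excess of all genes. The P-MSC list gave 1, beside 59.9%. Summits within 25 kb numbered 8 in fBM-MSCs (13 with every summit, 2 at the stricter threshold), 11 in vBM-MSCs (20 and 2), 13 in A-MSCs (21 and 6) and 16 in P-MSCs (9 at the stricter threshold). The peak lists are pooled, so their spread between replicates is unknown, and the cause of these shifts was not tested.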

Other observations

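Some tight junction genes were highest in A-MSC replicate 2, a pattern chosen after its values were seen and not tested. Of the 15 epithelial junction genes detected in A-MSCs, 11 were highest in replicate 2, 3 in replicate 3 and 1 in replicate 1, while 34.9% of the 15178 genes detected in A-MSCs were highest in replicate 2. This library was also the deepest of the 3, with 39802023 expected counts, and several of the 11 were near 0 or nearly equal, such as Tjp1 (1.26 TPM against 1.22 in both others). Cldn4, the gene of claudin 4, had 9.02 TPM there against 0 and 0.12 in the other A-MSC libraries. Cldn1 had 3.57 TPM against 0.55 and 0, and F11r, the gene of junctional adhesion molecule A, 19.2 against 10.7 and 6.62. Cdh1 (0.22 TPM) was at 0 in the other A-MSC libraries. The same library had the highest Krt8 and Krt18.

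The genes around Krt8 and Krt18 did not share their profile. Within 100 kb, 6 other genes were in the expression files and 3 were tested. In A-MSCs the adjusted p (edgeR) was 0.145 for Eif4b, a translation factor gene, and 0.361 for Spryd3, while Tns2, the gene of the adhesion protein tensin 2, fell by 1.18 (SE 0.197, adjusted p = 0.00127). The keratins Krt4, Krt78 and Krt79 were at most 0.23 TPM in any library.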
